A study of Mus musculus with 6 samples.

Results

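The regions described here are those that 4 tables of CUT&Tag signal assigned to 10 genes for proteoglycans of the heart's extracellular matrix, namely Dcn, Bgn, Aspn, Lum, Fmod, Prelp, Ogn, Vcan, Acan and Hspg2. Members were chosen by gene symbol alone. They came to 108 of 456310 regions over the tables, and to 10 of the 26742 genes with a region. CUT&Tag places a transposase at chromatin through an antibody, so that reads collect where the antibody's target sits. Primary cardiac fibroblasts from mouse heart gave 6 libraries in 2 sets. A letter in the sample names marks the T set, taken to be the coactivator TAZ, and the S set, taken to be the transcription factor SRF, and no label states the antibody. Each set held 1 library of cells labelled NC, 1 of cells given TGF-b, a cytokine that activates fibroblasts, and 1 of cells given TGF-b together with an siRNA. The siRNA is labelled SiTAZ (T set) or SiSRF (S set), but in the study's own account it was directed against Piezo2. Strain, age and number of mice are not given in the labels. Transcripts were not measured, so neither the knockdown nor the cell type can be checked on expression. Regions do not serve instead, since they lay at genes of several cell types. The tables held 0 regions each at the fibroblast gene Tcf21, 0 to 6 at Pdgfra and 0 to 3 at Col1a1, 0 to 3 and 1 to 3 at the cardiomyocyte genes Myh6 and Tnnt2, and 2 to 8 and 1 to 7 at the endothelial genes Pecam1 and Cdh5.

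Proteoglycans are core proteins that carry long sulfated sugar chains. The small leucine-rich proteoglycans Dcn, Bgn, Aspn, Lum, Fmod, Prelp and Ogn bind collagen fibrils and set their diameter and spacing. Vcan and Acan are large chondroitin sulfate proteoglycans that bind hyaluronan and hold water, and Hspg2, or perlecan, is the heparan sulfate proteoglycan of basement membranes. Activated cardiac fibroblasts are a main source of these proteins in the scarred heart. TAZ has no DNA-binding domain of its own and reaches chromatin chiefly through TEAD proteins. SRF binds a sequence known as the CArG box.

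Depth was low throughout. Called regions numbered 127036, 53121 and 134584 in the NC, TGF-b and siRNA libraries of the T set and 27986, 25891 and 28738 in those of the S set, with a median of 7 to 13 reads per called region. The T set held 47 member regions of all 10 genes for TGF-b over NC, with 4 to 152 reads in both libraries together and a median of 17. It held 46 regions of 9 genes for siRNA over TGF-b, with Lum missing. The S set held 5 regions of 4 genes and 10 regions of 4 genes. Reads were counted in windows of 2 kb, so the 47 and 46 regions of the T set lay in 39 and 37 separate groups of windows. No treatment was repeated, and each difference is one between libraries. The 95% intervals of single regions cover counting error only.

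The promoters of Hspg2 and Ogn are shown because T set regions lay 149 and 126 bp before their outermost annotated starts and differed between libraries. The sequences lie before the outermost RefSeq start of each gene, with 198 bases for Hspg2 and 250 for Ogn. They are read 5′ to 3′ on the gene's strand in GRCm38.p6. Capitals mark the motif GGAATG, the core that TEAD proteins recognise. Region coordinates below are of GRCm39, and whether the start in the tables is the same base as the RefSeq start was not tested.
Hspg2, chr4:137468553-137468750, plus strand: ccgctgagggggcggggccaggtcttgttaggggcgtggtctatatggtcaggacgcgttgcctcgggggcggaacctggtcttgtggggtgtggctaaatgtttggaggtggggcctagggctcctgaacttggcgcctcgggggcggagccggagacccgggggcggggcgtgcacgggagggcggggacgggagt
Ogn, chr13:49607765-49608014, plus strand: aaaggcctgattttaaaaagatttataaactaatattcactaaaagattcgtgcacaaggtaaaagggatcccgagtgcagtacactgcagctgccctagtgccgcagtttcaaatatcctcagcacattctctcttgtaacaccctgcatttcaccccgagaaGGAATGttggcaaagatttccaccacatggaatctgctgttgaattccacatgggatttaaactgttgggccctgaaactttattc
The Hspg2 window was rich in G and C, at 70.2% with 17 CpG dinucleotides. Ogn had 42.0% and 4, below the median of 52.0% over 27025 promoter windows of 250 bases. Both strands were searched from 250 bases before to 50 after the start. GGAATG, or its reverse complement CATTCC, was found in 2 of 8 member windows with a sequence and in 14.6% of all windows. It lay 86 to 81 bases before the start in Ogn and 12 to 7 bases before the start in Acan, as CATTCC. A CArG box was in 0 of 8 member windows and in 1.57% of all windows. These matches describe the letters and say nothing of binding.

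Member regions of the T set were read beside all regions of the same table. For TGF-b over NC, 6 of 47 regions (12.8%) were at least 2-fold higher in TGF-b, against 17.3% of all regions, and 20 (42.6%) were at least 2-fold lower, against 42.1%. With the interval on one side of 0 as well, 4 (8.51%) were higher, against 14.1%, and 14 (29.8%) lower, against 30.2%. The median log2 ratio was -0.42 (95% rank interval -1.32 to 0.20), against -0.65 over all regions, and centring on the latter turned it to 0.23, with 15 regions higher (26.7% of all regions) and 10 lower (27.2%). In the comparison of siRNA with TGF-b, 16 of 46 regions (34.8%) were at least 2-fold higher in siRNA, against 49.7% of all regions, and 8 (17.4%) were lower, against 16.2%. With the interval, 11 (23.9%) were higher, against 38.4%, and 6 (13.0%) lower, against 11.0%. The median was 0.32 (0.02 to 1.16), against 0.97 over all regions, and centring turned it to -0.65, with 9 regions higher (29.2% of all regions) and 15 lower (28.9%). Rank intervals order the regions of the same pair of libraries, some of which share windows. They do not measure the spread of a treatment. Regions with 3 or fewer reads in a library were 16 of 47 and 19 of 46, and the medians with those reads raised to 3 were -0.19 and 0.32. The library in which a region was called goes for the most part with the sign of its ratio. Of the 47 regions, 29 (61.7%) were called in NC only and 25 of these lay below 0, while 12 (25.5%) were called in TGF-b only and 3 of these lay below 0. Of all regions, 68.9% were called in NC only, with 86.8% of them below 0, and 25.7% in TGF-b only, with 17.1% below 0. For siRNA over TGF-b in this set, 17 members (37.0%) were called in TGF-b only, against 25.3% of all regions. Of these 17, 10 lay below 0 and 7 above, where 79.0% of all regions so called lay below 0. In siRNA only 28 members (60.9%) were called, against 70.5%, and 4 of these lay below 0, against 10.2%.

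**Figure D1:**
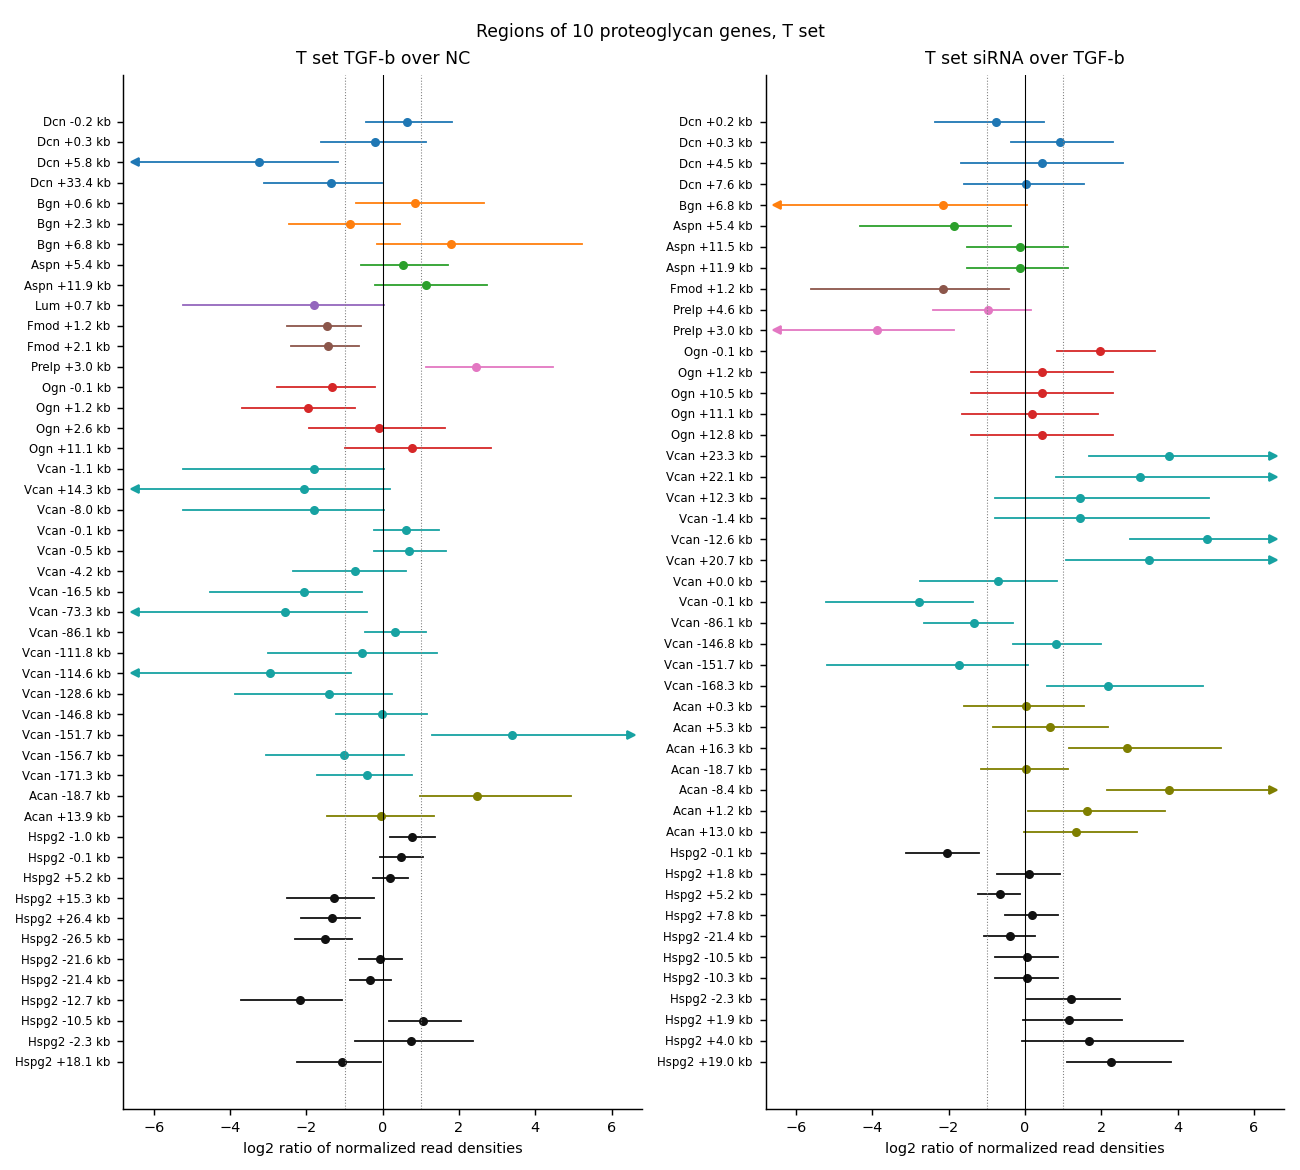
Log2 ratio of normalized read densities (x axis) for each member region of the T set, coloured by gene and named by its distance from the nearest annotated start (y axis), for TGF-b over NC (left, 47 regions) and siRNA over TGF-b (right, 46 regions). Bars are 95% counting intervals, arrowheads mark bounds beyond the axis or open because a library had 0 reads, and dotted lines mark 2-fold. The Hspg2, Vcan, Prelp and Fmod leading regions lie below 0 on the right, and the Ogn promoter lies above it.

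A leading region was taken for each gene, namely that with the highest mean log2 density of both libraries within 3 kb of a start, or else the nearest. For TGF-b over NC in the T set, 1 of 10 leading regions was at least 2-fold higher (Prelp), against 19.5% of all genes, and 3 were lower (Lum, Fmod and Ogn), against 30.1%. Centring turned this split to 5 higher (Dcn, Aspn, Prelp, Vcan and Hspg2) and 1 lower (Lum), where all genes gave 34.4% and 18.2%. For siRNA over TGF-b, 1 of 9 was higher (Ogn), against 36.6% of all genes, and 6 were lower (Bgn, Aspn, Fmod, Prelp, Vcan and Hspg2), against 19.0%. All 6 of these were regions called in the TGF-b library only. Of all T set regions so called, 79.0% lay below 0. Ranked by the arithmetic mean of the densities instead, Acan took another region and 2 of 9 were higher, against 37.4% of all genes. Lum and Bgn no longer passed 2-fold once reads of 3 or fewer were set to 3. The TGF-b library is the same in both comparisons, so its reads enter both ratios.

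Hspg2 (ENSMUSG00000028763) carried the most reads of the members. Its promoter region, 149 bp upstream of the start at chr4:137195823-137196040, had 43 NC, 62 TGF-b and 10 siRNA reads of the T set. The siRNA library thus had the fewest reads, and those of NC and TGF-b lay closer together. The log2 ratio was 0.48 (95% interval -0.06 to 1.05) for TGF-b over NC and -2.04 (-3.11 to -1.21) for siRNA over TGF-b. The latter was a 4.13-fold lower density. Centring gave 1.14 for TGF-b over NC, past 2-fold, and -3.02 for siRNA over TGF-b, and without the authors' line the latter was -2.52. In NC and TGF-b a second promoter region, 963 bp upstream at chr4:137195084-137195151, had 35 and 61 reads in a window that overlaps the first, at a log2 ratio of 0.76 (0.18 to 1.37).

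Within the Hspg2 gene the regions did not move together. The intron region 5230 bp past a start, at chr4:137201078-137201611, was called in both libraries of each T set comparison and had 69, 83 and 37 reads in NC, TGF-b and siRNA. Its ratio was 0.20 (-0.26 to 0.66) and then -0.66 (-1.24 to -0.13), in the same directions as at the promoter and smaller. The exon region at chr4:137228228-137228595 had 61, 50 and 27 reads, with ratios of -0.32 (-0.86 to 0.21) and -0.39 (-1.08 to 0.26), both within counting error. A neighbouring intron region, 21605 bp before a start, shared its window in part and had 51 reads in NC and 50 in TGF-b.

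Several Hspg2 intron regions called in NC only had fewer reads in TGF-b. The region at chr4:137223212-137223282 had 56 NC and 19 TGF-b reads, for a log2 ratio of -1.504 (-2.29 to -0.81). The one at chr4:137222501-137222602, whose window overlaps it, had 47 and 18, a ratio of -1.32 (-2.14 to -0.59). Elsewhere in the gene, 28 reads stood against 5 (-2.18, -3.72 to -1.07), 22 against 8 (-1.27, -2.51 to -0.24) and 21 against 9 (-1.06, -2.24 to -0.04). These 5 regions lay 15 kb or more from the promoter. After centring, the ratio with 28 and 5 reads was -1.53 and the others lay between -0.85 and -0.40, within 2-fold. The exon region at chr4:137239106-137239350 went the other way, with 13 reads in NC and 27 in TGF-b, a ratio of 1.06 (0.17 to 2.05), and kept 20 in siRNA (0.06, -0.78 to 0.86). A region close by, at chr4:137239485-137239549, shared that window and had the same 27 and 20 reads. The 4 regions farther into the gene each had more reads in siRNA than in TGF-b. The exon region 18992 bp past an inner start, at chr4:137268724-137268800, had 5 reads in TGF-b and 20 in siRNA, a ratio of 2.27 (1.10 to 3.82). The exon region 2299 bp before an inner start, at chr4:137247418-137247524, had 5, 8 and 14 reads, with ratios of 0.73 (-0.71 to 2.36) and 1.20 (0.05 to 2.49). Centring brought the ratios of siRNA over TGF-b in these exon regions to 1.30 and 0.23. Intron regions with 36 and 29 reads and with 26 and 20 reads in TGF-b and siRNA had ratios of 0.17 (-0.53 to 0.86) and 0.11 (-0.74 to 0.92), again within counting error.

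**Figure D2:**
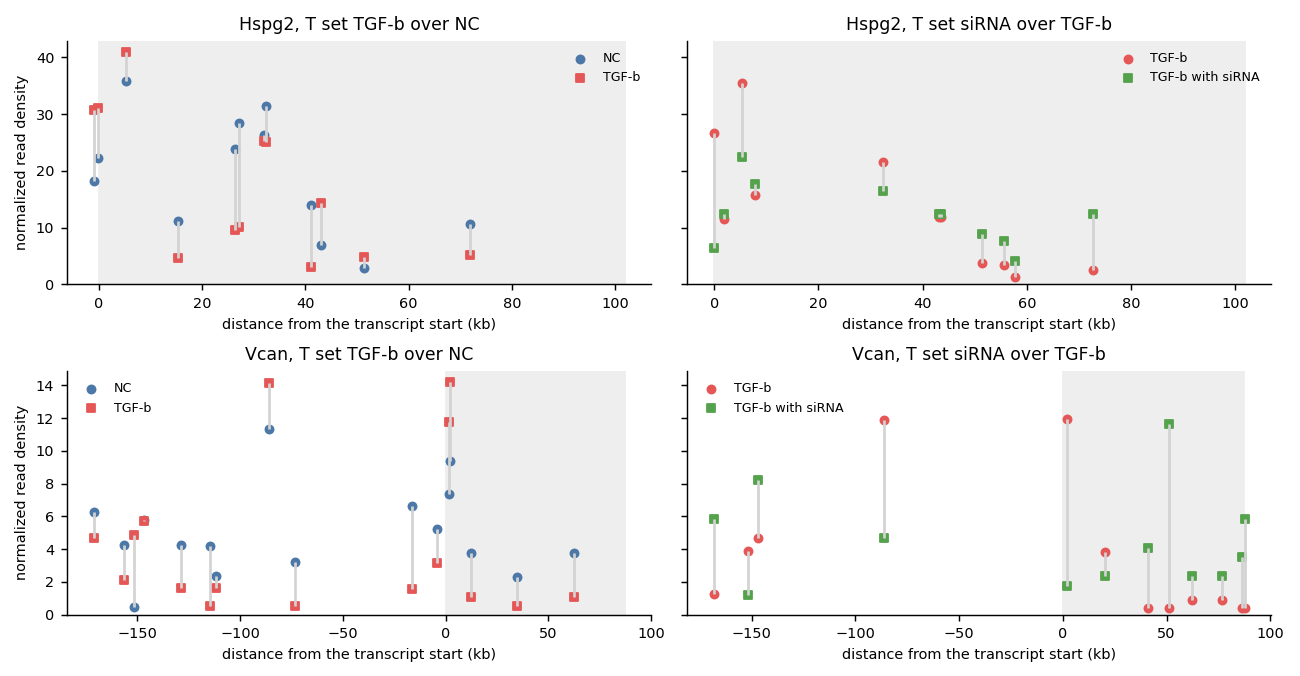
Normalized read density (y axis, from 0) of each T set region against its distance from the start of the outermost transcript of Hspg2 (top) and Vcan (bottom) in kb (x axis), for TGF-b over NC (left) and siRNA over TGF-b (right). Points are single libraries, grey lines join the 2 libraries of a region, and shading marks the gene body. Hspg2 signal in TGF-b is highest at and just past the start. The Hspg2 promoter and the Vcan region just before the inner start, which lies 2.11 kb inside the gene, have low density in siRNA.

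Vcan (ENSMUSG00000021614) also had its fewest reads in siRNA at the start of an inner transcript. The region 80 bp upstream of that start, which lies 2.11 kb inside the outermost start of the gene, at chr13:89888517-89888675, had 18 NC, 27 TGF-b and 2 siRNA reads. The siRNA library was again far below the others. Ratios were 0.60 (-0.22 to 1.47) and -2.76 (-5.22 to -1.37), the latter a 6.80-fold difference in density, or -2.35 with the 2 reads set to 3. A second region, 535 bp upstream, shared part of its counting window and had 14 reads in NC and 22 in TGF-b.

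Many regions assigned to Vcan were not in Vcan. Of its 16 regions for TGF-b over NC, 7 lay in the gene Gm4117 and 4 in Xrcc4, a DNA repair gene, at 4219 to 171349 bp from the nearest Vcan start. The region in a Gm4117 exon at chr13:89976630-89976892, 86133 bp upstream, had 22, 27 and 7 reads, with ratios of 0.32 (-0.47 to 1.13) and -1.34 (-2.65 to -0.32). In the Xrcc4 intron at chr13:90042315-90042428 there were 0, 8 and 1 reads, so that TGF-b was at least 2.52-fold higher than NC when the 0 is set to 3 reads (counting interval from a log2 ratio of 1.29). Another Xrcc4 intron region, 146829 bp upstream, had 11, 10 and 13 reads and ratios of -0.02 (-1.23 to 1.17) and 0.81 (-0.32 to 1.999). Regions with few reads made up most of the rest, and 12 of the 16 ratios were negative. Those with 0 reads in TGF-b had 4, 6 and 8 in NC.

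Inside Vcan the siRNA library had reads where TGF-b had 0. The exon region at chr13:89839590-89839696 had 0 reads in TGF-b and 19 in siRNA, at least 6.86-fold higher with the 0 set to 3. A region downstream of the gene, at chr13:89802867-89802941, had 0 and 9 (at least 3.42-fold), a 3' UTR region 0 and 5 (at least 2.05-fold) and an intron region 0 and 6 (at least 2.39-fold). These folds take the 0 as 3 reads and leave out the counting error of the other library, and the counting intervals of the last 2 begin at log2 ratios of 0.82 and 1.08. An intron region in Xrcc4, 168313 bp upstream, had 2 and 9 reads, a ratio of 2.19 (0.58 to 4.66), or 1.22 after centring. These regions thus differed between TGF-b and siRNA in the direction opposite to the region at the inner start. They were called in siRNA only, and the region at the inner start in TGF-b only. Among all regions called in siRNA only, 10.2% lay below 0, against 79.0% of those called in TGF-b only.

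Ogn (ENSMUSG00000021390), for osteoglycin or mimecan, had a promoter region with the fewest reads in TGF-b. The region 126 bp upstream, at chr13:49761310-49761483, had 18 NC, 6 TGF-b and 19 siRNA reads. TGF-b lay below both other libraries. Ratios were -1.34 (-2.77 to -0.19) for TGF-b over NC and 1.98 (0.84 to 3.41) for siRNA over TGF-b, and centring left them at -0.68 and 1.01. The sequence shown above for Ogn, which holds GGAATG, precedes the RefSeq start of this gene. At chr13:49762618-49762772, in an exon 1173 bp past the start, reads were 20, 4 and 4, so the siRNA library did not differ there from TGF-b in reads. Ratios were -1.96 (-3.69 to -0.72) and 0.45 (-1.42 to 2.31). The windows of these regions overlap, and reads at either are few. The remaining Ogn regions had 3 to 5 reads per library.

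**Figure D3:**
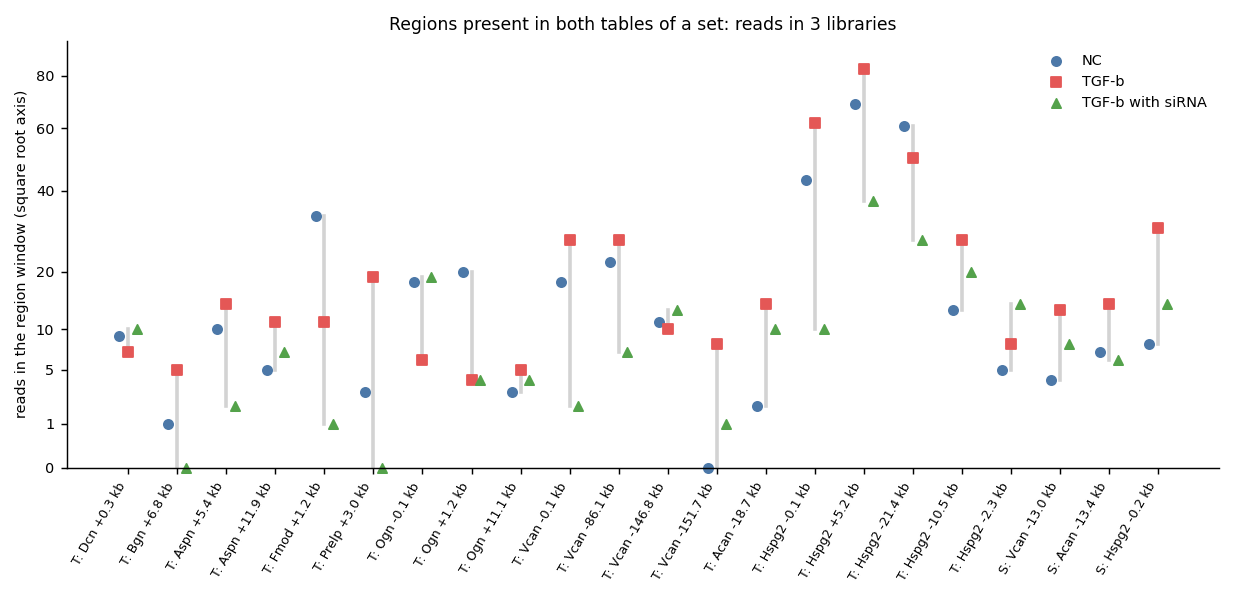
Reads in the region window (y axis, square root scale) in the NC, TGF-b and siRNA libraries for the member regions found in both tables of a set (x axis, T or S set, gene and distance from the nearest annotated start). Each point is 1 library and grey bars span the lowest to the highest; the Hspg2 promoter and the Vcan inner start of the T set have their lowest value in siRNA (10 and 2 reads), the Ogn promoter in TGF-b (6 reads).

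Among the class II small proteoglycans, Fmod (fibromodulin, which steers collagen fibril assembly) and Prelp (which links collagen to basement membrane) sit 116 kb apart on chromosome 1. The Fmod intron region at chr1:133966381-133966570, 1241 bp past the start, had 33 NC, 11 TGF-b and 1 siRNA reads. Reads were thus highest in NC, although the table lists the region as called in TGF-b only. Its ratios were -1.45 (-2.50 to -0.57) and -2.14 (-5.60 to -0.42), the latter -1.13 with the 1 read set to 3. The leading region, 2061 bp past the start at chr1:133967189-133967401, shared part of that window and had 38 and 13 reads in NC and TGF-b (-1.44, -2.40 to -0.61), which centring brought to -0.79. In Prelp, the intron region 3038 bp past the start at chr1:133846063-133846165 had 3, 19 and 0 reads. TGF-b was above both other libraries, with a ratio to NC of 2.45 (1.13 to 4.45), and siRNA was at least 3.64-fold below TGF-b with the 0 set to 3. A second Prelp region, 4558 bp past the start, had 18 reads in TGF-b and 6 in siRNA, a ratio of -0.98 (-2.41 to 0.17). Lum, or lumican, had a single region, in a 5' UTR at chr10:97401651-97401741, with 7 reads in NC and 1 in TGF-b (-1.80, -5.25 to 0.03), or -0.83 with that 1 read set to 3.

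The class I members Dcn (decorin), Bgn (biglycan) and Aspn (asporin) had shallow regions. At the Dcn promoter, 155 bp upstream at chr10:97315280-97315352, 10 reads in NC stood against 15 in TGF-b (0.63, -0.45 to 1.80). The Dcn exon region 270 bp past a start had 9, 7 and 10 reads, with ratios of -0.19 (-1.61 to 1.14) and 0.92 (-0.37 to 2.32), and no library stood apart. In Dcn introns, 10 reads in NC against 0 in TGF-b gave at least a 2.47-fold lower density with the 0 taken as 3 reads (counting interval up to a log2 ratio of -1.16), and 13 against 4 gave -1.35 (-3.11 to -0.02). The leading Bgn region for TGF-b over NC, in an exon, had 11 and 5 reads (-0.87, -2.47 to 0.46). In the Bgn intron, 6766 bp past the start, reads were 1, 5 and 0. The siRNA value there is at the floor, and raising low reads to 3 brought the siRNA ratio to -0.14. For Aspn, the intron region at chr13:49703250-49703395 had 10, 14 and 2 reads, with ratios of 0.54 (-0.56 to 1.72) and -1.87 (-4.33 to -0.38). The latter was -1.45 with the 2 reads set to 3. Another, 11873 bp past the start, had 5, 11 and 7 reads, with ratios of 1.13 (-0.19 to 2.73) and -0.13 (-1.51 to 1.13). Dcn and Lum lie 47.0 kb apart on chromosome 10, and Aspn and Ogn 40.5 kb apart on chromosome 13.

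Acan, which encodes aggrecan, had regions that differed and regions that did not. The intron region at chr7:78730695-78730831 had 2 NC, 14 TGF-b and 10 siRNA reads. NC was thus the low library, at a ratio of 2.48 (0.98 to 4.94), and siRNA and TGF-b were close (0.02, -1.16 to 1.12). An exon region at chr7:78741044-78741126 had 1 read in TGF-b and 19 in siRNA, a ratio of 3.77 (2.15 to 7.25), or 2.78 with the 1 read set to 3. An intron region had 2 and 13 (2.67, 1.17 to 5.14) and an exon region 1233 bp past a start 3 and 8 (1.62, 0.07 to 3.66). Centring brought these ratios to 2.80, 1.70 and 0.65. Each of these regions was called in siRNA only, as were 70.5% of all regions in that comparison. The leading regions had similar reads, with 8 NC and 7 TGF-b reads in one table and 7 TGF-b and 5 siRNA reads in the other.

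By annotation, introns held 30 of 47 (63.8%) and 27 of 46 (58.7%) member regions of the T set, against 74.6% and 75.2% of all assigned regions. In the S set introns held 2 of 5 and 3 of 10, against 72.2% and 67.6%. Exons held 2 and 5 there, against 6.57% and 6.48%. In the T set, 9 of 47 regions (19.1%) were exonic for TGF-b over NC, against 5.86% of all assigned regions, and 13 of 46 (28.3%) for siRNA over TGF-b, against 5.99%. Some of these exons belong to Gm4117, and exonic sequence of member genes and of all genes was not compared. Promoter regions made up 7 of 47 (14.9%, against 12.9%) and 4 of 46 (8.70%, against 12.2%). Per 100 kb of gene, Vcan had 18.2 regions for TGF-b over NC, most of them outside the gene as assigned above, and Hspg2 11.8. The median gene of at least 50 kb had 6.05, and Acan had 3.23. In the table of siRNA over TGF-b, Vcan had 13.7, Hspg2 10.8 and Acan 11.3, against a median of 6.27.

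The S set had few member regions. For TGF-b over NC, 1 of 5 regions was at least 2-fold higher, against 17.4% of all regions, and 0 were lower, against 26.7%. With the interval on one side of 0 as well, these were 1 and 0, against 11.1% and 18.7%. By leading regions, 1 of 4 genes was higher, against 20.5% of all genes, and 0 lower, against 22.2%. Vcan was a second higher gene after centring (1.10). With siRNA against TGF-b, 2 of 10 regions were higher, against 15.1%, and 0 lower, against 27.8%, or 1 and 0 with the interval, against 9.69% and 21.0%. By leading regions, 1 of 4 genes (Acan) was higher, against 15.4%, and 0 lower, against 20.5%. Medians were 0.33 and -0.02, and those of all regions -0.20 and -0.21.

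The Hspg2 promoter was the S set region that differed most between NC and TGF-b. At chr4:137195731-137196022, 204 bp upstream, it had 8 NC, 30 TGF-b and 14 siRNA reads. TGF-b was the highest library, by a ratio of 1.23 (0.25 to 2.45) over NC and with siRNA at -0.99 (-1.94 to -0.14) to TGF-b. A Vcan exon region at chr13:89839892-89840201 had 4, 13 and 8 reads and an Acan exon region at chr7:78735973-78736132 had 7, 14 and 6. Both were highest in TGF-b, but with intervals that spanned 0 in each comparison, namely 0.90 (-0.43 to 2.66) and -0.54 (-1.84 to 0.63) for Vcan, and 0.33 (-0.84 to 1.69) and -0.997 (-2.45 to 0.21) for Acan. A Fmod intron region had 14 reads in NC and 14 in TGF-b. The Hspg2 exon region at chr4:137239632-137239728 had 4 reads in TGF-b and 11 in siRNA (1.38, 0.01 to 3.15), and an Acan exon region 4 and 10 (1.26, -0.15 to 3.03).

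**Figure D4:**
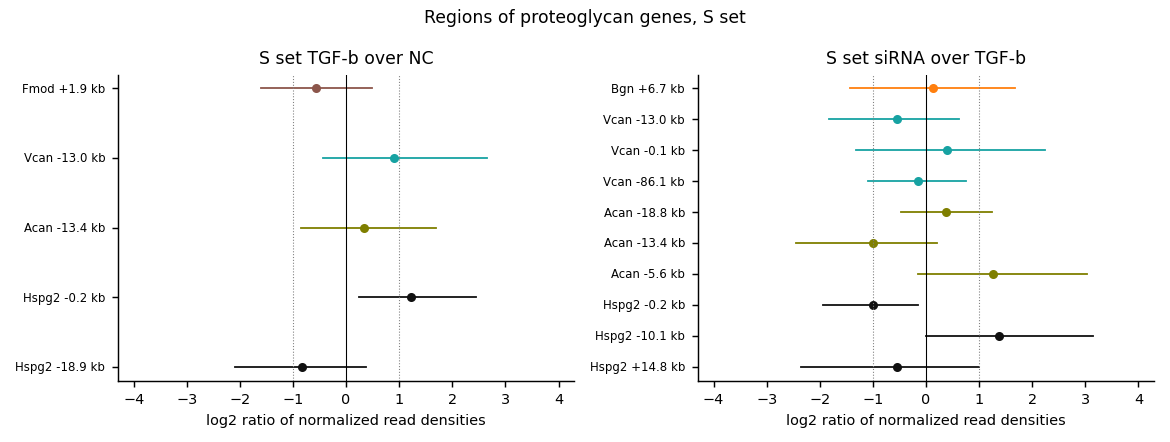
Log2 ratio of normalized read densities (x axis) for each member region of the S set, coloured by gene and named by its distance from the nearest annotated start (y axis), for TGF-b over NC (left, 5 regions) and siRNA over TGF-b (right, 10 regions). Bars are 95% counting intervals and dotted lines mark 2-fold; on the left the Hspg2 promoter alone lies past 2-fold.

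Of the distinct member regions, 4 of 74 in the T set (5.41%) and 4 of 12 in the S set (33.3%) overlapped one of the other set. Over all regions these shares were 4.71% of 292385 and 17.3% of 78371. These lay at the Hspg2 promoter, the Bgn intron, the Gm4117 exon assigned to Vcan and an Acan intron. At the Hspg2 promoter siRNA over TGF-b gave -2.04 (-3.11 to -1.21) in T and -0.99 (-1.94 to -0.14) in S. At the Gm4117 exon it was -1.34 (-2.65 to -0.32) and -0.16 (-1.09 to 0.75), and at the Acan intron 0.02 (-1.16 to 1.12) and 0.38 (-0.46 to 1.25). Intervals of the sets overlapped at each of these sites, and the difference was not tested.

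A list of 101 further genes for proteoglycan core proteins, chain synthesis, hyaluronan and turnover was read by leading regions. In the T set for TGF-b over NC, 96 had a region, of which 21 (21.9%, against 19.5% of all genes) were at least 2-fold higher and 28 (29.2%, against 30.1%) lower, with a median of -0.14 against -0.20 over all genes. By leading regions 11 of 44 chain synthesis genes were higher and 11 lower, but by the median over each gene's regions 5 were higher and 11 lower, where all genes gave 11.8% and 32.3%. Glce, which converts glucuronic to iduronic acid in heparan sulfate, had 17 reads in NC and 69 in TGF-b (1.96, 1.27 to 2.78). The sulfotransferase gene Ndst2 (21 and 44 reads), the brevican gene Bcan (16 and 41), Dsel (13 and 32) and the xylosyltransferase gene Xylt1, which starts the chain (5 and 37), were also higher. Lower were Hyal1, a hyaluronidase (47 and 5 reads; -2.93, -4.45 to -1.88), Ndst1 (49 and 21), Xylt2 (40 and 16), Cemip2 (39 and 17) and Papss2, which makes the sulfate donor (31 and 12). Between siRNA and TGF-b, 24 of 93 (25.8%, against 36.6%) were higher and 26 (28.0%, against 19.0%) lower, with a median of 0.02 against 0.45. By leading regions 8 of 43 chain synthesis genes were higher and 15 lower, but by the median over each gene's regions 14 were higher and 7 lower, where all genes gave 42.0% and 10.7%. Among those with a lower leading region were Glce (69 and 22 reads; -1.13, -1.86 to -0.48), Ndst2 (44 and 13), the linkage enzyme gene B3galt6 (48 and 6) and Chpf, which aids chondroitin polymerisation (36 and 9). The aggrecanase gene Adamts5 had 42 and 7. Higher were the syndecan gene Sdc1 (2 and 27 reads, ratio 3.68, 2.29 to 6.14) and Podn (9 and 17). The hyaluronan synthase gene Has1 (8 and 14), Gpc5 (7 and 13) and Spock3 (2 and 14) were higher too. Ratios of Podn, Has1 and Gpc5 were 1.31, 1.20 and 1.27, beside medians of 0.45 over all genes and 0.97 over all regions.

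In the S set, TGF-b over NC gave 13 of 60 list genes (21.7%, against 20.5% of all genes) at least 2-fold higher and 16 (26.7%, against 22.2%) lower. Dsel (14 and 57 reads, ratio 1.41, 0.66 to 2.32), Papss1 (15 and 52), Glce (6 and 29) and the glypican genes Gpc5 (11 and 36) and Gpc1 (4 and 24) were higher. By the median over each gene's regions, Dsel (1.41) and Glce (1.62) stayed past 2-fold. Papss1 (-0.57), Gpc5 (0.20) and Gpc1 (0.17) did not. Lower were Spock1 (26 and 18 reads; -1.05, -1.93 to -0.22), Spock3 (17 and 9), Xylt1 (20 and 5), the heparanase gene Hpse (14 and 8) and Chad (13 and 8). For siRNA over TGF-b, 9 of 64 (14.1%) were higher, against 15.4%, and 9 (14.1%) lower, against 20.5%. Csgalnact2, which starts chondroitin chains, had 13 and 38 reads (1.53, 0.70 to 2.49), and the hyaluronan receptor gene Cd44 had 4 and 17, with Hapln1 (5 and 16), Adamts9 (7 and 18) and Adamts1 (3 and 17) also higher. Gpc1 had 24 and 8 reads (-1.40, -2.63 to -0.38), and Chpf (18 and 7), Cemip2 (16 and 1), Ust (11 and 2) and Hs3st1 (11 and 2) were lower as well. Gpc1 in the S set and Glce and Ndst2 in the T set thus stood highest in TGF-b among the libraries of their set. The list was chosen with earlier results of these data known.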

How the data were processed

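CUT&Tag libraries of primary mouse cardiac fibroblasts were analysed from 4 tables, each holding 2 of the 6 libraries. Per the published methods, the authors used Bowtie2 and GRCm39 for mapping and called peaks with a tool written as Masc2. The submitters' processing notes name BWA 0.7.12 and mm10. Gene starts in the tables do not match GRCm38, and coordinates are given here as GRCm39. The normalized read density deposited by the authors is a signal per region, 0.5 per read with 1 read added, rescaled along a straight line in mean log2 density. A change shared by all common peaks is removed by that step. The deposited log2 ratios and p-values of the authors' own comparison were not used.

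The line was undone to recover reads, which came out whole (tolerance 0.1) for 99.98% to 99.99% of the regions of a table. Reads come from windows of 2 kb, so that regions closer than this share reads. Ratios were computed from the densities as the later over the earlier library, and the recovery was tested on simulated data. A ratio of 2-fold was the threshold. The 95% Wilson interval of the later library's share of reads gave the interval of each log2 ratio. These intervals cover counting error only. The 95% rank interval of a median was taken from the ordered ratios of the regions. It measures neither counting error nor the spread between libraries of a treatment. With 1 library per treatment and set no test was made. A library with 3 or fewer reads was at the floor, and a fold against 0 reads was taken against 3 reads. Total depth was not used here, and each ratio was formed within its own table because tables were normalized separately.

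The members, the pathway list and the alternatives were chosen with earlier results of these data known. All 10 genes are named. For each gene and table the leading region was the one with the highest mean log2 density within 3 kb of a transcription start site (TSS), or otherwise the nearest region. Regions named beyond these were the 5 with the most reads in a table and up to 8 per direction past 2-fold with the interval on one side of 0. From the pathway list, up to 5 genes per direction and table were named by the same thresholds, by reads. Alternatives were centring on the median of all regions, no line, reads of 3 or fewer set to 3, regions above the median density, leaving out the gene with the most regions, a threshold of 1.5-fold and, for the pathway list, medians over a gene's regions. Alternatives chosen after seeing the data kept 1 region per group of overlapping windows, ranked leading regions by the arithmetic mean density, or recounted the members' leading regions under centring, no line and reads set to 3. Promoter sequences are from RefSeq (GRCm38.p6) and were matched by symbol for 8 of 10 genes. Python 3.11.15, numpy 2.4.6, pandas 2.3.3, scipy 1.17.1 and matplotlib 3.10.9 were used.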

Additional observations from a re-analysis of the deposited data

Results flagged for a closer look

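The members' medians differed in sign between the sets. For TGF-b over NC the median log2 ratio was -0.42 over 47 regions of the T set and 0.33 over 5 regions of the S set. For siRNA over TGF-b it was 0.32 over 46 regions of the T set and -0.017 over 10 regions of the S set. The sets hold mostly different regions, each gene with an S set region also had T set regions, 1 library stood behind each treatment, and whether the sets differ was not tested. Centring on the median of all regions gave both T set medians and the S set median for siRNA over TGF-b (0.19) the other sign. Over regions above the median density, the S set median for TGF-b over NC was -0.11.

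The Bgn intron region for siRNA over TGF-b had a log2 ratio of -2.15 in the T set, from 5 and 0 reads, and 0.13 in the overlapping S set region, from 6 and 6 reads. The difference was not tested. With reads of 3 or fewer set to 3, the T set ratio was -0.14.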

How the results depend on the processing

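No paired analysis was possible because each treatment of a set had 1 library. In the T set, TGF-b over NC gave 6 regions at least 2-fold higher, against 15 after centring on the median of all regions, 3 above the median density and 13 at 1.5-fold. The 20 lower regions became 10 after centring, 10 above the median density and 12 without Vcan. The median of -0.42 became 0.23 after centring. For siRNA over TGF-b in the T set, the 16 higher regions became 9 after centring, 8 above the median density and 9 without Vcan. The 8 lower regions became 15, 4 and 5 under the same alternatives. The median of 0.32 became -0.65 after centring and -0.13 without the line. In the S set, TGF-b over NC gave 1 higher region, against 2 after centring, 2 without the line, 2 at 1.5-fold and 0 without Hspg2. The count of 0 lower regions became 1 at 1.5-fold. For siRNA over TGF-b, the 2 higher regions became 0 above the median density and 1 without Acan, and the 0 lower regions became 2 without the line and 2 at 1.5-fold. With the median over a gene's regions, the pathway list gave 7 in place of 21 higher genes (T set, TGF-b over NC), 9 in place of 16 lower genes (S set, TGF-b over NC) and 12 in place of 26 lower genes (T set, siRNA over TGF-b). Leading regions of members, under the same alternatives added after seeing the data, went from 1 higher and 3 lower to 5 and 1 after centring in the T set for TGF-b over NC. In the S set they went from 1 to 2 higher after centring and to 2 without the line for TGF-b over NC, and from 0 to 1 lower without the line for siRNA over TGF-b. Ranking leading regions by the arithmetic mean density, chosen after seeing the data, gave 2 in place of 1 member higher for siRNA over TGF-b in the T set. Fewer regions or genes entered the counts above the median density and without a gene, and the cause of the other shifts was not tested. Of 81 values of leading regions under an alternative, 69 stayed on the same side of the 2-fold threshold, 8 came to pass it and 4 no longer passed it. With 1 region per group of overlapping windows, counts stayed within 1.5 times in each table. Median reads per called region were 7 to 13, so that differences of a few reads cannot be resolved.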
